A study of Mus musculus with 15 samples.

Results

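The 9 genes described here encode transcription factors that are used in the medial ganglionic eminence (MGE) lineage at or after the step set by NKX2-1. They are *Nkx2-1*, *Zeb2*, *Maf*, *Satb1*, *Mkx*, *Etv1*, *Bcl11b*, *St18* and *Tcf7l2*. Their rows were taken by gene name, and all 9 were present among the 26835 genes of the *Lhx6* table and among the 25714 genes of the *Mtg8* table. Each of the 15 libraries came from the YFP-positive cortical cells of 1 mouse embryo at E14.5, on a mixed C57BL6/CBA background. All embryos carried the R26R-YFP fl/fl reporter together with the driver, given as Nkx2-1-Cre Tg for controls and Nkx2-1-Cre for mutants. *Lhx6* controls were Lhx6+/+ (n = 4) and were compared with Lhx6-/- mutants (n = 5). *Mtg8* controls were Mtg8+/+ (n = 3) and were compared with Mtg8-/- mutants (n = 3). The study describes the mutants as littermates of the controls in each case. In both lines the mutant alleles were germline losses of function, the *Mtg8* allele being a LacZ knock-in. A germline allele acts in every cell of the embryo, and Nkx2-1-Cre labels cells by their history, so sorted cells need not transcribe *Nkx2-1* at the time of the sort.

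The MGE is a germinal zone of the embryonic ventral forebrain. NKX2-1, a homeodomain protein, gives MGE progenitors their identity and switches on *Lhx6*, which encodes a LIM homeodomain protein that is kept by MGE-derived interneurons while they migrate to the cortex and mature there. Interneurons bound for the cortex are known to shut down *Nkx2-1*, a step that needs ZEB2, whereas MGE neurons that stay in the ventral forebrain can keep it. SATB1, MAF and MKX belong to the later, postmitotic part of the programme. MTG8, encoded by *Runx1t1*, is a transcriptional corepressor that does not bind DNA by itself.

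Reads per library ranged from 15725405 to 18110287 in *Lhx6* controls, from 12218422 to 17452110 in *Lhx6* mutants, from 16139978 to 19671917 in *Mtg8* controls and from 16326656 to 22053032 in *Mtg8* mutants. Values are normalized counts, that is reads on a gene divided by a size factor for the library. Differences were tested with limma on log2(normalized count + 1), separately in each table, and a gene was called at a Benjamini-Hochberg adjusted p under 0.05 over all genes tested. *Lhx6* itself held 5812 to 8441 normalized counts in its controls and 236 to 495 in its mutants (log2 fold change -4.48, SE 0.20, adjusted p = 1.34e-07 by limma). *Runx1t1* held 7938 to 10264 normalized counts in *Mtg8* controls and 12249.8 to 13934 in the libraries labelled *Mtg8* mutant (log2 fold change 0.54, SE 0.17, adjusted p = 0.859 by limma). Reads were counted over the whole gene, so the exons they came from are not known. The targeted gene was thus not lower in this group, which is called labelled *Mtg8* mutant from here on. A pair of neuropeptide genes of MGE-derived interneurons lay lower in all 3 labelled mutants than in all 3 controls, without a call by limma. *Sst* held 14420.5 to 18501 normalized counts in controls and 5683 to 8048 in labelled mutants (log2 fold change -1.34, SE 0.19, adjusted p = 0.0713 by limma), and *Npy* held 5037 to 6247 and 1952 to 3577 (-1.13, SE 0.23, adjusted p = 0.58). With DESeq2 on these libraries, the study reported *Sst* and *Npy* among the genes significantly lower in both its *Lhx6* and its *Mtg8* mutants. By in situ hybridization, the study also counted fewer *Sst* and *Npy* cells in the developing cortex of its *Mtg8* mutant embryos.

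Some library names began with a date and others did not, and the meaning of the names is not given in the sources used here. In the *Lhx6* table mutants 1, 2, 3 and 5 had dated names, whereas mutant 6 and the 4 controls had undated ones. Name style and genotype can thus be told apart in that table only through mutant 6, whose name also shared its leading code with controls 1 and 2. *Lhx6* mutants 2 and 5 shared another code. In the *Mtg8* table controls 1 and 2 and labelled mutant 2 shared a dated code, and control 4 and labelled mutants 3 and 4 had undated names. The sorted cells were checked against markers. Besides *Lhx6*, the *Lhx6* controls held the genes of the GABA-synthesizing enzymes, *Gad1* at 2585 ± 324 and *Gad2* at 3728 ± 540.1 normalized counts (SD, n = 4). Markers of pyramidal neurons were present too, with 9 genes adding up to 14949 to 20675 normalized counts in *Lhx6* controls and 11933 to 16384 in *Lhx6* mutants. The same sum was 5635 to 13770 in *Mtg8* controls and 8795 to 22289.5 in the labelled *Mtg8* mutants. Endothelial and blood markers added up to 4096 to 39322 normalized counts in *Lhx6* controls and 1171 to 13352 in *Lhx6* mutants. Their sum was 7166 to 18492 in *Mtg8* controls and 10377 to 21180.5 in the labelled *Mtg8* mutants. Haemoglobin genes made up most of it. In *Lhx6* controls *Hba-a1*, *Hbb-bs* and *Hbb-bt* averaged 7926, 4629 and 3599 normalized counts. The highest endothelial marker there, *Pecam1*, averaged 32.8.

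In control cells the 9 genes fell into an abundant and a scarce set. Levels between genes are compared here as normalized counts per kilobase of exon. The order rests on the deposited exon length, which is 2842 bases for *Nkx2-1*, 20203 for *Zeb2* and 19027 for *Satb1*. Which of these exons the cells used is not known. Before division by length, *Zeb2* (5865) and *Satb1* (3634) held more normalized counts than *Nkx2-1* (990) on average in *Lhx6* controls. In *Lhx6* controls *Bcl11b* stood highest, at 745 ± 152 per kb (SD, n = 4), and did not overlap with the next gene. *Maf* (378 ± 70.9), *Nkx2-1* (348 ± 29.5) and *Zeb2* (290.3 ± 19.4) followed and overlapped with their neighbours in this order, and *Satb1* lay below them at 191 ± 24.3 per kb. The other four genes were scarce, with means from 26.8 per kb for *Etv1* to 44.8 per kb for *St18*, and each overlapped with the next in the order *St18*, *Mkx*, *Tcf7l2*, *Etv1*. *Mtg8* controls, which were normalized apart, gave a similar order, with *Bcl11b* (766 ± 41.0 per kb, SD, n = 3) and *Maf* (752 ± 119) overlapping at the top. *Etv1* was the one gene whose place moved by more than 2 ranks, from the ninth to the sixth place. It held 298 to 393 normalized counts in *Lhx6* controls and 584 to 763 in *Mtg8* controls. *Maf* kept its place but also differed, with 2531 to 3918 normalized counts in *Lhx6* controls and 5182 to 7131 in *Mtg8* controls. These differences lie across separately normalized tables and were not tested.

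**Figure D1:**
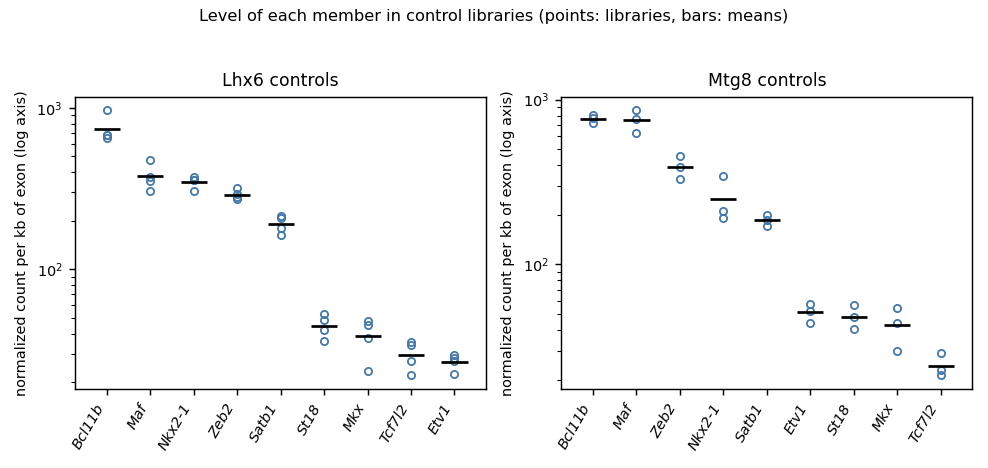
Levels of the 9 genes in control libraries, in normalized counts per kilobase of exon on a log axis, with 1 point per library and a bar at the mean. Genes are ordered by their mean within each table, with *Lhx6* controls (n = 4) on the left and *Mtg8* controls (n = 3) on the right. *Bcl11b*, *Maf*, *Nkx2-1*, *Zeb2* and *Satb1* lie above *St18*, *Mkx*, *Tcf7l2* and *Etv1* in both tables, with a gap between *Satb1* and the next gene.

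The *Lhx6* comparison asks which of these factors depend on LHX6. *Satb1* and *Mkx* fell, *Bcl11b* rose, and the other 6 genes did not pass the test. The 3 calls among 9 members (2 lower and 1 higher) stand beside 1.71% of all 16727 genes tested in the table, 0.682% lower and 1.03% higher. At an unadjusted p under 0.05 limma gave 5 of the 9, against 12.7% of all genes tested. All 9 members passed the minimum mean of 10 normalized counts. The groups did not overlap in 4 members (3 lower and 1 higher), against 6.22% of all genes tested (3.03% lower and 3.19% higher). The median log2 fold change was 0.21 over the 9 members and -0.04 over all genes tested. In bulk samples a smaller share of cells that express a gene and less RNA per cell cannot be told apart.

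*Nkx2-1* (ENSMUSG00000001496.15) is the selector gene of the MGE. It lies on chromosome 12 from 56531958 to 56536908 on the minus strand of GRCm38. The sorted control cells held *Nkx2-1* RNA, at 1061, 1020.1, 1009.7 and 869 normalized counts in *Lhx6* controls 1 to 4. *Lhx6* mutants 1, 2, 3, 5 and 6 held 952, 1199.5, 1578, 1334 and 804 normalized counts. Mutants 2, 3 and 5 lay above all controls, mutant 6 lay below all of them, and mutant 1 lay within their range. Controls averaged 990 ± 83.8 (SD, n = 4) and mutants 1173 ± 307 (SD, n = 5), and the log2 fold change of 0.21 (95% interval -0.20 to 0.62) did not pass the test (limma adjusted p = 0.656). A pair of long non-coding genes start within 10 kb of *Nkx2-1*. Of these, *Sfta3-ps*, on the same strand and starting 7481 bases away, held 6382 normalized counts on average in controls and 5400.0 in mutants (log2 fold change -0.25, limma adjusted p = 0.535). The other, *Gm26973* on the opposite strand, held 306 and 259 normalized counts (log2 fold change -0.26, limma adjusted p = 0.602).

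*Zeb2* encodes a zinc finger repressor that binds E-boxes and is known for shutting down *Nkx2-1* in interneurons bound for the cortex. It lies on chromosome 2 from 44983632 to 45117395 on the minus strand. Controls 1 to 4 held 6410.2, 5541, 5881 and 5628 normalized counts, and mutants 1, 2, 3, 5 and 6 held 13620.3, 7566, 9788, 8609 and 6071. Mutants 1, 2, 3 and 5, the dated libraries, lay above all controls, and mutant 6, the undated one, lay within their range. Mean levels were 5865 ± 391 (SD, n = 4) and 9131 ± 2858 (SD, n = 5), with a log2 fold change of 0.59 (SE 0.19, 95% interval 0.18 to 0.999). This did not pass limma's test (adjusted p = 0.188). DESeq2 on the recovered reads, the tool named in the study's methods, gave 0.64 with adjusted p = 0.0465 in a test that called 4.6% of all genes, and limma without mutant 6 gave 0.72 with adjusted p = 0.0404. With name style as a covariate the estimate compares mutant 6 alone with the controls, and its spread is taken from the other libraries, on the assumption that mutant 6 varies as they do. Limma then gave 0.05 (adjusted p = 1). Of the 20203 exon bases of *Zeb2*, 653 overlap with *Zeb2os*, a non-coding gene on the opposite strand. *Zeb2os* held 21.1 to 37.6 normalized counts in controls and 43.3 to 124 in mutants, without overlap (log2 fold change 1.16, limma adjusted p = 0.19). Whether reads were counted by strand is not given in the sources used here, so reads from this stretch cannot be assigned to either gene. *Mir5129*, a microRNA gene that overlaps with 5 exon bases of *Zeb2*, held 0 to 0.921 normalized counts in controls and 0.931 to 7.42 in mutants and was below the minimum mean.

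The bases upstream of *Nkx2-1* and *Satb1* are shown because ZEB2 is known to bind the E-box CACCTG, because *Nkx2-1* is its known target in this lineage, and because *Satb1* is the most abundant member that fell. They are the 250 bases before the RefSeq start on GRCm38.p6, minus strand, written 5′ to 3′, with the E-box in capitals where it occurs, at chr12:56536909-56537158 for *Nkx2-1* and at chr17:51833291-51833540 for *Satb1*.
Nkx2-1: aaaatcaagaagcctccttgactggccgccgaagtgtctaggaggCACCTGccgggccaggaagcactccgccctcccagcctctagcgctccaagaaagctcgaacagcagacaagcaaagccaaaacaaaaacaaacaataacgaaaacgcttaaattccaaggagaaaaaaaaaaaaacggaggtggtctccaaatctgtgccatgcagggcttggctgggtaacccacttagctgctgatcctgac
Satb1: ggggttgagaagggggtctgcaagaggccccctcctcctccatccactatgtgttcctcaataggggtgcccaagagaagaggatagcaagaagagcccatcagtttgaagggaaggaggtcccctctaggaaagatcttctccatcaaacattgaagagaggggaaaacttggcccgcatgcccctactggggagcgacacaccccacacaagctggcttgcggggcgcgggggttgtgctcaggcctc

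The RefSeq table held a window of 300 bases, from 250 before to 50 after the start, for 6 of the 9 genes, namely *Nkx2-1*, *Zeb2*, *Satb1*, *Etv1*, *Bcl11b* and *Tcf7l2*. Several start sites were listed for *Satb1* (5), *Zeb2* (4), *Etv1* (2) and *Tcf7l2* (2), and only the window nearest to the annotated 5′ end of each gene was used. The windows used were searched on both strands for 6 motifs: the E-box CACCTG, the LIM homeodomain core TAATTA, the NKX2-1 core CTCAAG, the TCF7L2 core CTTTGAT, the MAF core TGCTGAC and the ETS core CGGAAG. The E-box occurred 205 bases upstream of the *Nkx2-1* start and directly after the *Satb1* start, outside the bases printed above. It occurs in 20.2% of all 32851 windows of this length. The other motifs, held by 3.73% to 16.9% of all windows, were not found in these 6 windows, and the other windows of these genes were not searched. A match of letters is a description and does not show a binding site.

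*Maf*, on chromosome 8 from 115682942 to 115707794, encodes a bZIP factor of MGE-derived interneurons. Controls 1 to 4 held 2531, 2920.2, 3918 and 3086 normalized counts, and mutants 1, 2, 3, 5 and 6 held 9444, 4581, 3990.1, 4339 and 2241. The 4 dated mutants lay above all controls and the undated mutant 6 lay below all of them, so that the groups overlapped. Group means came to 3114 ± 584 (SD, n = 4) and 4919 ± 2691 (SD, n = 5), and the log2 fold change was 0.52 (SE 0.31, limma adjusted p = 0.506). With name style as a covariate the sign turned, to -0.46 (limma adjusted p = 1).

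*Satb1* (ENSMUSG00000023927.15) encodes a chromatin-organizing homeodomain protein that is known to act after LHX6 in the maturation of somatostatin interneurons. It lies on chromosome 17 from 51736187 to 51833290 on the minus strand. In controls 1 to 4 it held 4064, 3086, 3967 and 3421 normalized counts. In mutants 1, 2, 3, 5 and 6 it held 1774, 1146, 1072, 1429.9 and 880.3 normalized counts. Every mutant lay below every control, and the undated mutant 6 was the lowest. The mean went from 3634 ± 462 (SD, n = 4) to 1261 ± 349 (SD, n = 5), which is 34.7% of the control level, with a log2 fold change of -1.56 (SE 0.19, 95% interval -1.97 to -1.15, limma adjusted p = 0.000645). An exact permutation test over the 9 libraries gave p = 0.00794, the smallest that 4 against 5 allow. With name style as a covariate, and so with mutant 6 as the lone mutant library, the log2 fold change was -2.04 (limma adjusted p = 0.00882). Against controls 1 and 2, which share the leading code of its name, mutant 6 was lower by the same measure, at -2.01.

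A pair of short genes that the annotation marks as needing experimental evidence lie near the *Satb1* start on the opposite strand. *Gm6934* overlaps with 128 exon bases of *Satb1* and *Gm37593* starts 9571 bases away. *Gm37593* held 78.9 to 105 normalized counts in controls and 4.95 to 53.3 in mutants, without overlap (log2 fold change -2.33, limma adjusted p = 0.0519). *Gm6934* held 23.9 to 58.0 in controls and 1.24 to 20.3 in mutants, also without overlap (log2 fold change -2.92, limma adjusted p = 0.0639). Both pointed the same way as *Satb1* and neither passed the test. The overlap with *Gm6934* covers 0.673% of the exon length of *Satb1*. As with *Zeb2os*, reads from this stretch cannot be assigned to either gene. *Gm36931*, which overlaps with 156 exon bases of *Satb1* on the same strand, held 0 to 13.6 normalized counts over the *Lhx6* libraries and was below the minimum mean.

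*Mkx* (ENSMUSG00000061013.6), on chromosome 18 from 6934518 to 7004780, encodes Mohawk, an atypical homeodomain protein of the TALE group best known from tendon. Its level in controls 1 to 4 was 197, 153, 184 and 95.8 normalized counts, from 205, 173, 200 and 112 reads. In mutants 2 and 3 no read was found, mutants 5 and 6 had 1 read each, and mutant 1 had 12 reads, or 14.8 normalized counts. A count of 0 allows up to 3 reads, or 2.78 and 2.79 normalized counts in mutants 2 and 3. Every mutant was far below every control. The mean fell from 158 ± 45.1 (SD, n = 4) to 3.41 ± 6.42 (SD, n = 5), or 2.16% of its control value. The log2 fold change was -6.03 (SE 0.77, limma adjusted p = 0.000979) and, for a gene with so few reads, its size depended on the pseudocount, being -3.70 (adjusted p = 4.75e-05) with a pseudocount of 10. An exact permutation test gave p = 0.0159. With name style as a covariate the estimate was -6.10 and adjusted p = 0.112 by limma, in a comparison of 1 mutant library with 4 controls.

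*Etv1*, on chromosome 12 from 38779380 to 38870484, encodes an ETS factor known from subsets of interneurons and from cortical layer 5 neurons in the mature cortex. Controls 1 to 4 held 374, 393, 298 and 361 normalized counts, and mutants 1, 2, 3, 5 and 6 held 230.2, 279.5, 252, 251 and 245. Every mutant lay below every control, although mutant 2 and control 3 were close. Control and mutant means were 356 ± 40.8 (SD, n = 4) and 252 ± 17.9 (SD, n = 5), with a log2 fold change of -0.50 (SE 0.16), which did not pass limma's test over all genes (adjusted p = 0.195). DESeq2 gave -0.50 with adjusted p = 0.0402, and edgeR gave -0.50 with adjusted p = 0.18. Its paralogue *Etv5* fell from 931 ± 119 to 415 ± 131 normalized counts (log2 fold change -1.22, SE 0.24, limma adjusted p = 0.0192).

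*Bcl11b* (ENSMUSG00000048251.15), on chromosome 12 from 107910403 to 108003602, encodes CTIP2, a zinc finger protein known from striatal projection neurons, deep-layer cortical neurons and T cells. It was the member that rose. Controls 1 to 4 held 5256, 5528, 7877 and 5508 normalized counts, and mutants 1, 2, 3, 5 and 6 held 22824, 17852, 16358, 16692 and 9500.5. Every mutant lay above every control, and the undated mutant 6 was the closest to them. The mean rose from 6042 ± 1230 (SD, n = 4) to 16645 ± 4764 (SD, n = 5), or 275% of the control level, with a log2 fold change of 1.43 (SE 0.21, 95% interval 0.96 to 1.89, limma adjusted p = 0.00353). An exact permutation test gave p = 0.0159. With name style as a covariate the estimate was 0.67 and the call was lost (limma adjusted p = 0.638). Against controls 1 and 2 alone, mutant 6 was higher by 0.82 on the log2 scale. Without mutants 2 and 5 the estimate was 1.36 with limma adjusted p = 0.0632. *Bcl11a*, its paralogue, held 4998 ± 348 normalized counts in controls and 4600.3 ± 1048 in mutants (log2 fold change -0.15, limma adjusted p = 0.705).

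*St18*, on chromosome 1 from 6487231 to 6860940, encodes a zinc finger protein of the MYT family that is known from MGE neurons that settle in the ventral forebrain. It held 232 to 339 normalized counts in controls and 264 to 344 in mutants. The ranges overlapped almost fully, and the log2 fold change was 0.05 (95% interval -0.34 to 0.43, limma adjusted p = 0.919). Its paralogues *Myt1* (log2 fold change 0.39, limma adjusted p = 0.384) and *Myt1l* (0.48, adjusted p = 0.249) did not pass the test either.

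*Tcf7l2*, on chromosome 19 from 55741820 to 55933654, encodes an HMG-box effector of Wnt signalling and is known as a marker of the thalamus and habenula. Controls 1 to 4 held 299, 310.2, 237 and 193 normalized counts. Mutants 1, 2, 3, 5 and 6 held 377, 928, 197, 2493 and 291. Mutants 5 and 2, which share a name code, stood far above the rest, mutant 1 was slightly above all controls, and mutants 3 and 6 lay within the control range. The log2 fold change was 1.10 (SE 0.58, limma adjusted p = 0.459), and it was 0.13 without mutants 2 and 5. Mutant 5 also held the most *Lhx9* (596 normalized counts, against 107 to 297 in the other *Lhx6* libraries) and *Pou4f1* (379, against 11.1 to 55.3), genes known from the thalamus and the habenula. *Lef1*, from the same marker list, went the other way. It held 106 normalized counts in mutant 5, against 129 to 171 in the other mutants and 87.5 to 144 in controls. Mutant 2 held the most *Isl1* (962, against 8.29 to 214) and *Zic4* (580.3, against 47.9 to 184), genes known from ventral forebrain and septal neurons. Both were picked after their values were seen, from the list of ventral forebrain projection and cholinergic neuron genes. That list added up to 2641 to 3192 normalized counts in controls and 3337 to 6114 in mutants. Of its 12 genes tested, 10 had positive and 2 negative log2 fold changes (median 0.72), and none was called by limma. The summed level of the 9 thalamic and habenular markers tested was 1527 to 2033 in controls and 1247 to 2324 in mutants. Over this list the median log2 fold change was -0.10, 5 of 9 genes were negative, and 1 was called, *Rora*, a nuclear receptor gene, which fell from 366 ± 53.9 to 95.2 ± 44.8 normalized counts (log2 fold change -2.08, limma adjusted p = 0.00748). The part of these markers in the *Tcf7l2* values was not tested.

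**Figure D2:**
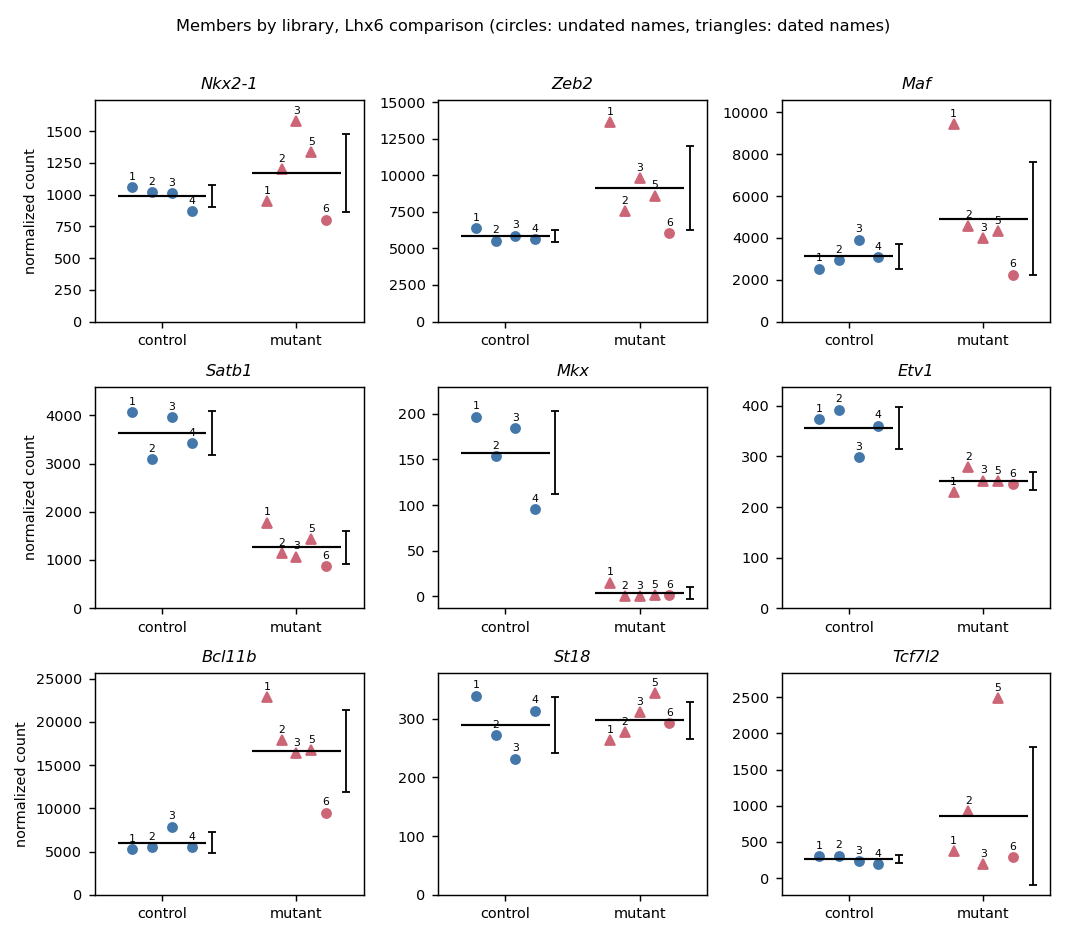
Normalized counts of the 9 genes in each library of the *Lhx6* comparison (vertical axes start at or below 0 and differ between panels). Each point is 1 library with its replicate number, circles are undated and triangles dated library names, horizontal bars are means and vertical bars are ± 1 SD (n = 4 controls, 5 mutants). Groups are apart for *Satb1*, *Mkx*, *Etv1* and *Bcl11b*, and mutant 5 at 2493 lifts the *Tcf7l2* mean.

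Mutant libraries were not alike. Mutant 1 was the highest mutant for *Zeb2*, *Maf*, *Satb1*, *Mkx* and *Bcl11b*, and mutant 6 was the lowest for *Nkx2-1*, *Zeb2*, *Maf*, *Satb1* and *Bcl11b*. Mutant 6 was also the shallowest library, at 12218422 reads, and mutant 1 the next, at 13314727 reads. The part of depth and name style in this order was not tested. The coefficient of variation was larger in mutants than in controls for 7 of the 9 members, as it was for 83.0% of all genes tested.

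For each gene called, the genes with the most similar pattern over the 9 *Lhx6* libraries were found by the root mean square difference of their log2 deviations from the control mean. Among the genes most like *Satb1* was *Npy*, a neuropeptide gene (0.18), which went from 4574 ± 208 to 1575 ± 563 normalized counts (log2 fold change -1.61, limma adjusted p = 0.00153). *Bcl11b* was most like *Zfp536* (0.12, from 1474 ± 223 to 4257 ± 1007 normalized counts) and *Zfp704* (0.18, from 1191 ± 419 to 3382 ± 974.8), both zinc finger genes. *Mkx* had no close match. Its nearest genes were *Kcns3*, a potassium channel subunit gene, at 1.05 and *Prkcq*, a protein kinase C gene, at 1.33. *Prkcq* went from 306 ± 29.7 to 12.6 ± 11.7 normalized counts (log2 fold change -5.33, limma adjusted p = 0.00441). Likeness of pattern is a description over 9 libraries in 2 groups, and all these genes differ between the groups.

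Genes of the same lineage were read from lists. Among 17 postmitotic MGE interneuron genes 7 fell, with *Lhx6*, *Calb1* (-4.34, limma adjusted p = 0.0265) and the neuropeptide gene *Sst* (-3.06, adjusted p = 9.01e-08) the lowest, and 2 rose, the homeobox genes *Dlx6* (1.66, adjusted p = 0.000979) and *Dlx5* (1.02, adjusted p = 0.000719). None of 15 MGE progenitor genes and none of 12 genes of ventral forebrain projection and cholinergic neurons was called by limma, and their median log2 fold changes were 0.39 and 0.72. Of 8 genes of interneurons from the caudal ganglionic eminence (CGE), *Htr3a* fell (-1.65, adjusted p = 0.0451) and the chemokine gene *Cxcl14* rose (4.60, adjusted p = 1.03e-06). None of 9 pyramidal neuron, 5 microglia, 6 endothelial and blood, and 4 oligodendrocyte precursor and astroglial markers was called.

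**Figure D3:**
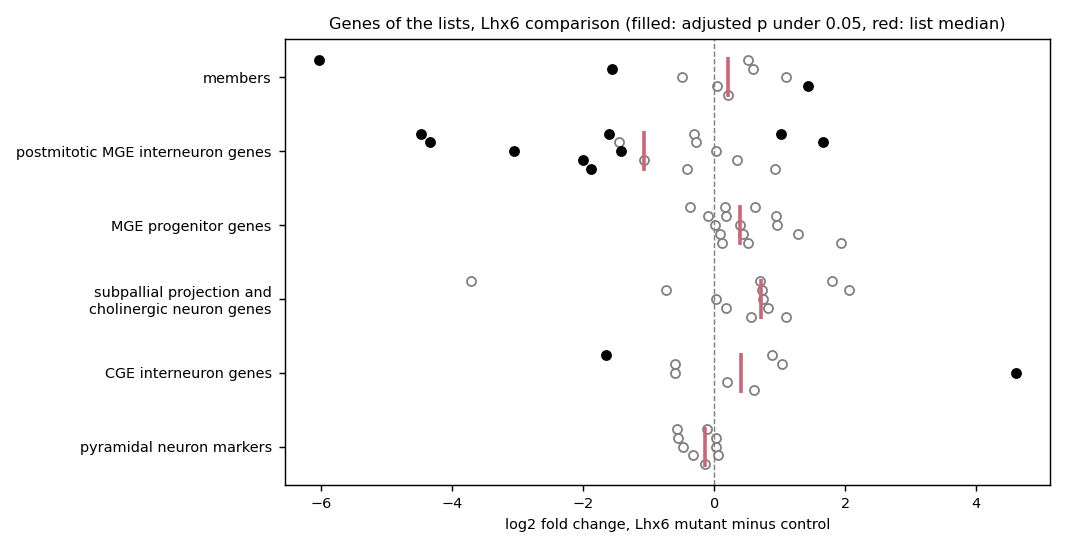
Log2 fold changes, *Lhx6* mutant minus control, of the genes tested in each list, with 1 circle per gene, filled where the limma adjusted p was under 0.05 and open otherwise. Red bars are list medians and the vertical position within a list only separates the circles. The members spread from -6.03 (*Mkx*) to 1.43 (*Bcl11b*) around a median of 0.21, and 7 of the 17 postmitotic MGE interneuron genes are filled on the lower side.

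The *Mtg8* comparison asks the same of MTG8. None of the 9 members was called by limma (0 of 9, against 0% of the 16132 genes tested), nor by DESeq2 or edgeR on the recovered reads. At an unadjusted p under 0.05 limma gave 3 members, against 5.49% of all genes tested, and DESeq2 called 0.192% of all genes at an adjusted p under 0.05. The groups did not overlap in the same 3 members, *Satb1* and *Bcl11b* lower and *Etv1* higher, against 10.2% of all genes tested (5.52% lower and 4.68% higher). With 3 libraries against 3, an exact permutation test cannot give a p below 0.1, which it gave for all of them.

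*Satb1* held 3812, 3547 and 3238 normalized counts in *Mtg8* controls 1, 2 and 4 and 2110.5, 2235 and 2611 in labelled mutants 2, 3 and 4. All 3 labelled mutants lay below all controls, with means of 3532 ± 287 and 2319 ± 260.3 (SD, n = 3 each). The log2 fold change was -0.61 (SE 0.18, 95% interval -0.996 to -0.22), with unadjusted p = 0.00483 and adjusted p = 0.859 by limma. It was -0.80 between the dated libraries, which share a name code, and -0.42 between the undated ones. Beside it, 15 of 17 postmitotic MGE interneuron genes had negative log2 fold changes (median -0.44, against -0.01 over all genes tested), and 5 of them were lower without overlap, such as *Sox6* at -0.71. None was called by limma. All 9 pyramidal neuron markers had positive log2 fold changes in this table. So had all 5 oligodendrocyte precursor and astroglial markers (median 0.58) and 9 of 13 MGE progenitor genes (0.67). Of ventral forebrain projection and cholinergic neuron genes 9 of 11 were positive (0.52), and of thalamic and habenular markers 7 of 9 (0.60). Microglia (4 of 5, 0.37) and endothelial and blood markers (5 of 6, 0.30) pointed the same way. CGE interneuron genes split evenly, with 4 of 8 positive (-0.11). The part of these shifts in the *Satb1* values was not tested.

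*Etv1* held 694, 584 and 763 normalized counts in controls and 1219, 1066 and 849 in labelled mutants 2, 3 and 4. All 3 lay above all controls. The means were 681 ± 90.1 and 1045 ± 186 (SD, n = 3 each), and the log2 fold change was 0.61 (SE 0.22, unadjusted p = 0.015, adjusted p = 0.859 by limma). It was 0.94 between dated and 0.32 between undated libraries. Markers of pyramidal neurons, a class in which *Etv1* is also known, had a median log2 fold change of 0.50 here, against -0.01 over all genes tested. Of these 9 genes, 2 did not overlap between groups, *Neurod2* (1.16) and *Emx1* (1.59), none was called by limma, and none was at 0 in all libraries. Other lists stood as high, with medians of 0.67 for MGE progenitor genes and 0.58 for oligodendrocyte precursor and astroglial markers. The median was 0.60 for thalamic and habenular markers and 0.52 for genes of ventral forebrain projection and cholinergic neurons. The part of all these genes in the *Etv1* values was not tested.

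*Bcl11b* held 5857, 6514 and 6279 normalized counts in controls and 5357, 2622 and 5389 in labelled mutants 2, 3 and 4. The labelled mutants lay below the controls, and labelled mutant 3 was far below its fellows. The log2 fold change was -0.55 (SE 0.25, unadjusted p = 0.0492, adjusted p = 0.859 by limma), and it was -0.21 (adjusted p = 0.972) without labelled mutant 3. It was -0.21 between dated and -0.74 between undated libraries, the second of which hold labelled mutant 3.

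The other 6 members overlapped between the *Mtg8* groups. *Mkx* held 123 to 222 normalized counts in controls and 114 to 162 in labelled mutants (log2 fold change -0.34, 95% interval -0.97 to 0.30, limma adjusted p = 0.893). *Gm46633*, a non-coding gene that starts 183 bases from *Mkx*, held 49.9 to 74.7 and 35.2 to 72.6 (log2 fold change -0.42, limma adjusted p = 0.893). *Maf* held 5182 to 7131 and 4851 to 6038 (log2 fold change -0.23), and *Zeb2* held 6625 to 9231 and 5404 to 9569 (-0.10). *Nkx2-1* ranged from 547 to 978 in controls and from 595 to 1183 in labelled mutants (0.18), and in both groups the library numbered 4, with an undated name, was the highest. *St18* ranged from 262 to 366 in controls and from 187 to 532 in labelled mutants (0.04), and *Tcf7l2* ranged from 187 to 254 and from 215 to 322 (0.40). The limma adjusted p of these 5 lay between 0.867 and 0.988.

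**Figure D4:**
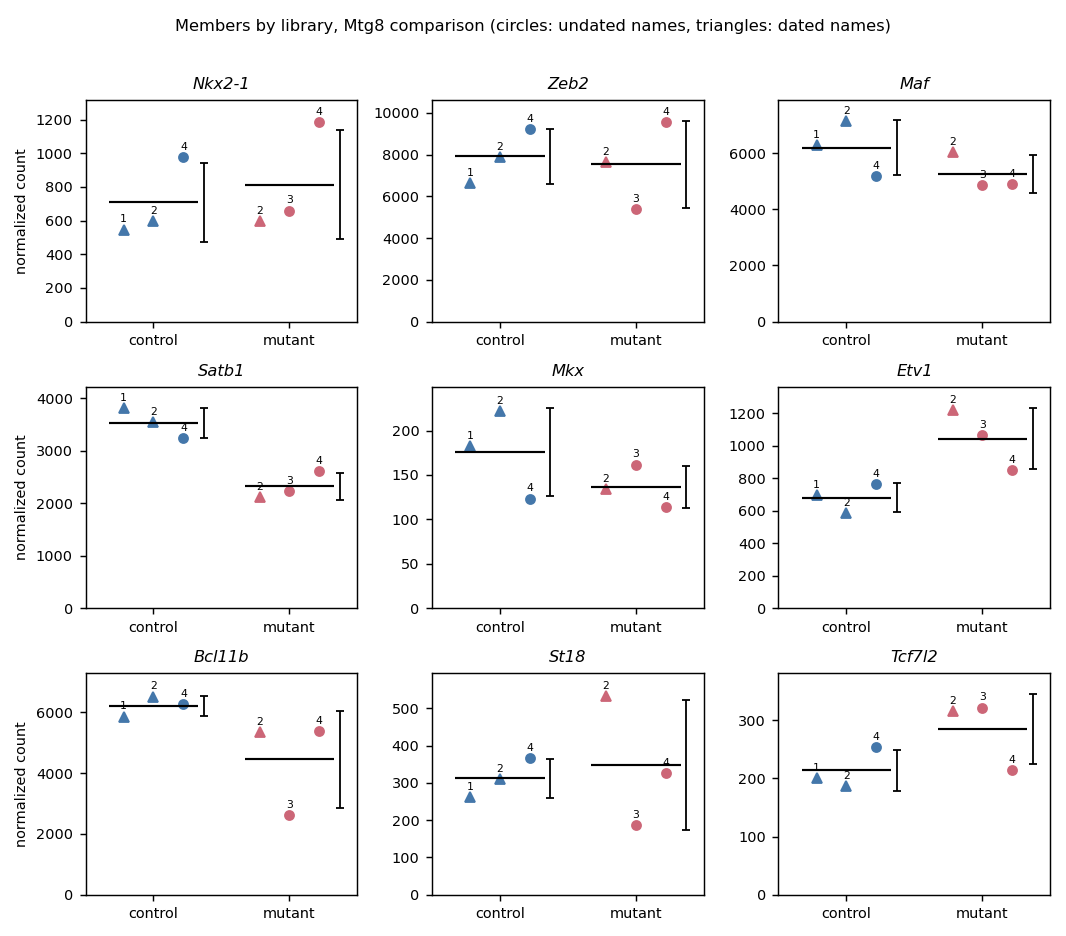
Normalized counts of the 9 genes in each library of the *Mtg8* comparison, drawn as for *Lhx6* (points with replicate numbers, circles undated and triangles dated names, horizontal bars means, vertical bars ± 1 SD, n = 3 controls and 3 libraries labelled mutant). Groups are apart for *Satb1*, *Etv1* and *Bcl11b*, and the lowest *Bcl11b* point is labelled mutant 3 at 2622.

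Side by side, *Satb1* was lower in both comparisons (log2 fold changes -1.56 and -0.61), called in the first. *Bcl11b* was 1.43 higher in *Lhx6* mutants and stood at -0.55, without a call, in the labelled *Mtg8* mutants. *Etv1* stood at -0.50 and 0.61, called by limma in neither and by DESeq2 in the first. *Mkx* stood at -6.03 and -0.34. The tables share no library and were normalized apart, and the differences between the 2 comparisons were not tested. *Runx1t1* itself was higher in *Lhx6* mutants, at 12227 to 26527 normalized counts against 6394 to 8945 in controls (log2 fold change 1.23, SE 0.19, limma adjusted p = 0.00401), whereas *Lhx6* held 8994 to 9489 in *Mtg8* controls and 7055 to 8666 in labelled mutants (-0.24, adjusted p = 0.87). Between undated libraries alone, with *Lhx6* mutant 6 as the lone mutant, *Runx1t1* was higher by 0.73 on the log2 scale.

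**Figure D5:**
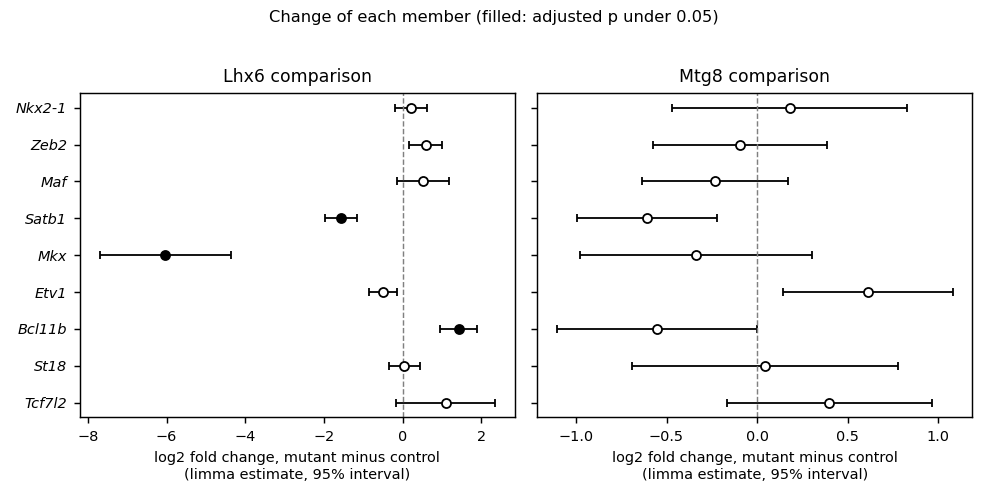
Log2 fold change of each gene, mutant minus control, as the limma estimate with its 95% interval, for the *Lhx6* comparison (left) and the *Mtg8* comparison (right, where the horizontal axis covers a smaller range). Filled circles have an adjusted p under 0.05. *Satb1*, *Mkx* and *Bcl11b* are filled on the left and none is filled on the right.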

How the data were processed

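Reads were single and of 75 bases, per the labels. Per the study's methods, the authors used fastp 0.20.1 for trimming, STAR 2.7b for alignment and featureCounts 1.6.4 for counts per gene, and left out sex-linked genes (GENCODE annotation of GRCm38.p6). The signal the authors deposited is the read count divided by a DESeq2 size factor, in a separate table per comparison. Both tables also give the authors' fold changes, standard errors, test statistics and p-values, and these were not used. The exon length per gene was taken as deposited. Within a library all values were steps of a fixed size worth 1 read, and dividing by it gave whole reads for 100% of values (tolerance 0.01). Groups and replicate numbers came from the sample titles. Each embryo gave 1 library, so p-values measure the spread between embryos, and embryos with the same number are not said to be paired.

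Genes with a mean normalized count of 10 or more were tested two-sided with limma 3.58.1 (R 4.3.3, trended prior variance) after adding a pseudocount of 1 and taking log2, with Benjamini-Hochberg adjustment at 0.05. The study's methods name DESeq2's Wald test. The analysis plan was written for normalized values, so limma was kept as the main test and DESeq2 on the recovered reads was an alternative, which called 5 members and 769 genes in the *Lhx6* table in place of 3 and 286. Fold changes are differences of means on this log scale. Exact permutation tests of single members were two-sided over libraries. The members and lists were chosen with earlier results of these data known, and the thalamic and habenular markers after values were seen. Named genes were the members, the targeted genes, neighbours within 10 kb, the 2 most similar genes for each member called, and the 3 lowest and 3 highest called genes of each list. Others (*Bcl11a*, *Myt1*, *Myt1l*, *Lhx9*, *Pou4f1*, *Lef1*, *Isl1*, *Zic4*, *Sox6*, *Neurod2*, *Emx1*, *Gad1*, *Gad2*, *Hba-a1*, *Hbb-bs*, *Hbb-bt* and *Pecam1*) were named after their values were seen. The paralogues as a list and a gene that the rule names are not reported here. Alternatives were a pseudocount of 10, no minimum mean or one of 50, TMM factors, DESeq2 1.42.0 and edgeR 4.0.16 on the recovered reads, a replicate block, name style as a covariate and each library left out in turn. Leaving out *Lhx6* mutants 2 and 5 together was chosen after seeing the data. The tests were tested on simulated data first. The floor of 3 reads covers counting error only, since no molecular identifiers were used.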

Additional observations from a re-analysis of the deposited data

Results flagged for a closer look

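In the *Lhx6* table, whose groups hold 4 and 5 libraries, a couple of member values stood apart by the size of the gap to the nearest library. The groups of 3 in the *Mtg8* table were not examined in this way, and chance alone flags about 1 in 20 groups. *Mkx* in *Lhx6* mutant 1 was 14.8 normalized counts, against 1.24 in the next highest mutant, and the gap made up 0.917 of the range of the 5 mutants (critical value 0.71). *Bcl11b* in *Lhx6* control 3 was 7877 normalized counts, against 5528 in the next highest control, and the gap made up 0.896 of the range of the 4 controls (critical value 0.829). Without mutant 1 the *Mkx* log2 fold change was -6.72 (limma adjusted p = 2.48e-05), and without control 3 that of *Bcl11b* was 1.56 (limma adjusted p = 0.00423).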

How the results depend on the processing

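*Satb1* was called in the *Lhx6* table under every alternative run, with name style resting on mutant 6 alone, and the number of members called stayed at 3 under both other minimum means, the pseudocount of 10, TMM factors, edgeR and the replicate block. DESeq2 called 5 members (3 lower and 2 higher) name style as a covariate left 1, and leaving out mutants 2 and 5 left 2. Leaving out 1 library at a time gave 3 to 4 members called. Over all genes of the *Lhx6* table DESeq2 called 769, name style left 57, leaving out mutants 2 and 5 left 124, and leaving out 1 library gave 159 (without control 1) to 492 (without mutant 6). With the replicate block, on 3 same-numbered pairs, 86 genes were called, and *Satb1* was -1.503 (adjusted p = 0.0356), *Mkx* -6.15 (0.0381) and *Bcl11b* 1.62 (0.0277). Deviations of same-numbered libraries correlated at -0.154 to 0.0717 in the *Lhx6* table. In the *Mtg8* table they correlated at 0.138 and 0.159, the 2 highest of 9 control and mutant pairs (the others -0.18 to 0.0778), and the libraries numbered 2 share a name code. With only 2 such pairs, and no label that pairs them, the block was kept as an alternative there.

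Some uncalled members changed sign. In the *Lhx6* table *Nkx2-1* (0.21) was -0.30 and *Maf* (0.52) was -0.46 with name style, and with 1 library left out *St18* ranged from -0.052 (without control 3; -0.0053 without mutant 5) to 0.13. In the *Mtg8* table *Nkx2-1* was -0.045 with name style, and *Zeb2* was 0.0025 with the replicate block. With 1 library left out, *Nkx2-1* ranged from -0.13 (without mutant 4) to 0.44. *Zeb2* ranged from -0.29 to 0.12 (without mutant 3), and was 0.02 without control 4. *St18* ranged from -0.32 (without mutant 2) to 0.43, and was -0.08 without control 1. None of these passed the test, and the cause was not tested. No alternative called a member in the *Mtg8* table. Over all its genes limma called 1 with no minimum mean, 2 with a minimum mean of 50, 100 with the replicate block and 0 to 87 (without mutant 2) with 1 library left out, and DESeq2 called 31. The number of embryos limits the precision in both tables, and in *Mkx* the few mutant reads limit the size of its fall.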
